A study of Mus musculus with 12 samples.

Results

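The 38 genes described here serve MYC and the making of ribosomes. They were taken from the count table by a list of symbols, and all 38 were among the 22298 genes of the count table. By role they comprise 6 genes of the MYC network, 3 of polyamine synthesis, 6 proteins of small nucleolar ribonucleoproteins (snoRNPs), 5 factors of small-subunit and 6 of large-subunit processing, 5 nucleolar chaperones and shuttling proteins, 5 genes of RNA polymerase I and its regulators, and 2 further growth genes. RNA was sequenced from 4T1, a mammary carcinoma line of the BALB/c mouse. The cells carried Cop1 sgRNA2, Cop1 sgRNA1 or a Rosa26 guide, and each of these populations was given IFNγ (interferon gamma, 20 ng/ml for 24 hours) or vehicle, with 2 libraries in each of the 6 groups. Cop1 is a ubiquitin ligase and Rosa26 a locus used as a neutral target, so that every group carried a guide. Both Cop1 guide populations together are called Cop1-loss cells. The design asks how loss of Cop1 changes transcripts of 4T1 cells and their answer to IFNγ. Where the guides cut in Cop1, and whether a population was 1 clone, is not given in the sources used here. The labels do not say that the 2 libraries of a group came from separate cultures, and the p-values therefore reflect no more than how far these libraries vary, which may be technical.

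MYC is a transcription factor that binds DNA as a heterodimer with MAX, preferring the E-box CACGTG, and its targets include enzymes of polyamine synthesis and much of the nucleolar machinery. Proteins of the MXD family, with Mxi1, compete for MAX and repress such genes. In the nucleolus, RNA polymerase I transcribes the ribosomal RNA precursor, snoRNPs modify it, and separate sets of factors process it into the small and the large ribosomal subunit. High output of this pathway is a common feature of growing carcinoma cells.

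Because the E-box is the preferred site of MYC and MAX, the promoters of the members were searched for the letters CACGTG, which read the same on both strands. Sequences were RefSeq promoters of GRCm38.p6, from 250 bases before to 50 bases after a gene's start. Of the 31 members on that table, 8 (25.8%) held the motif in any of their promoters and 23 did not, against 8.09% of 27025 genes on the same table. The 8 were Sms, Nop2, Mxd4, Max, Utp20, Pes1, Mybbp1a and Wdr43. A further promoter of Sms, at chrX:157491319-157491618 (minus strand), held no motif. Myc, Srm, Fbl, Rrp12, Bop1, Rrs1 and Npm1 had no promoter on that table. A match describes letters, not a site bound in these cells. The 250 upstream bases are shown for the 3 members with the whole motif before the start: Sms, which rose with loss of Cop1 and with IFNγ, Nop2, which rose with IFNγ, and Mxd4, which fell with IFNγ. They lie on GRCm38.p6 at chrX:157492288-157492537 (minus strand), chr6:125131633-125131882 (plus strand) and chr5:34187711-34187960 (minus strand), and capitals mark the E-box, whose first base is at -196, -60 and -219 from the start. Each is written 5′ to 3′.
Sms: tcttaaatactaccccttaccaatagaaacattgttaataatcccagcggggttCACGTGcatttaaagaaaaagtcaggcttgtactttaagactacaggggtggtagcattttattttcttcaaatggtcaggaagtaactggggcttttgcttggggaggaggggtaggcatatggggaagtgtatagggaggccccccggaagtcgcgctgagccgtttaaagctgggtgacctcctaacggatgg
Nop2: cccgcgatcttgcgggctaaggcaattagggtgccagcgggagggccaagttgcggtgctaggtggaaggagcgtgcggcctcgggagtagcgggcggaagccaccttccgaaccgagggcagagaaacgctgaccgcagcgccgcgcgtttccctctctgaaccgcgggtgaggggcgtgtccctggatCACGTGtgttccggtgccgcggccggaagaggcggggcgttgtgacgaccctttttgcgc
Mxd4: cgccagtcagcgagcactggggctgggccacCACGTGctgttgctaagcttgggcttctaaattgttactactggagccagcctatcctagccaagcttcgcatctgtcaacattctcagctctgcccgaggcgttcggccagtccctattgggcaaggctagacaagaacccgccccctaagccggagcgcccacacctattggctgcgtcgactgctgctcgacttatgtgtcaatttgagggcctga

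The libraries held 19378070 to 32609717 gene counts. Cop1 mRNA averaged 40.2% of the Rosa26 level in sgRNA2 cells and 73.8% in sgRNA1 cells with IFNγ, and 36.8% in sgRNA2 and 65% in sgRNA1 cells with vehicle. The part still counted does not show how much working protein remained. All 7 epithelial markers were expressed, and their summed level was 3660 to 3770 CPM (counts scaled to a TMM-adjusted library total) in Cop1-loss and 3440 CPM in Rosa26 libraries with IFNγ, and 4350 to 4420 CPM in Cop1-loss and 4040 to 4160 CPM in Rosa26 libraries with vehicle. The markers did not move as one: Epcam, Krt8 and Krt18 were higher in every Cop1-loss than in every Rosa26 library of the same treatment, and Cdh1 and Cldn4 were lower. Cdh1 had 367 to 411 CPM in Cop1-loss and 475 to 479 CPM in Rosa26 libraries with IFNγ, and 332 to 371 CPM in Cop1-loss and 484 to 498 CPM in Rosa26 libraries with vehicle. Of 10 leukocyte markers, Cd3e, Adgre1 and Nkg7 were among those with no count in any library, and the list summed to 3.35 to 7.78 CPM with IFNγ and 2.11 to 3.25 CPM with vehicle. Most of that sum was S100a8, with 2.89 to 7.21 CPM with IFNγ and 1.27 to 1.83 CPM with vehicle. The 8 fibroblast and endothelial markers summed to 16.4 to 17.6 CPM with IFNγ and 17.4 to 24.5 CPM with vehicle. Nearly all of it was Pdgfra, with 15.2 to 16.5 CPM with IFNγ and 16.6 to 23.3 CPM with vehicle. The part of these shifts in the results was not tested. In bulk RNA, fewer cells of a type and less RNA per cell cannot be told apart. The 6 IFNγ response markers summed to 1890 to 2160 CPM with IFNγ and 71.8 to 94.4 CPM with vehicle.

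Of the 38 members, 37 passed the low-count filter. Mycn, a paralog of Myc, had 0 counts among the 279976953 counts of the 12 libraries, where 3 counts would be 0.0107 CPM. Differences were tested with edgeR's quasi-likelihood test over 11904 genes, and calls were made where the p, adjusted by Benjamini-Hochberg, was under 0.05. Fold changes are log2 values with their standard error. Loss of Cop1, the mean of both guides against Rosa26, raised 14 and lowered 8 of the 37 members with IFNγ, a total of 22, where 40.6% of all genes tested were called, 19.8% as higher and 20.7% as lower. With library totals as the only scaling that split was 10 members higher and 9 lower, and 1770 genes higher and 3135 lower against 2362 and 2466 with TMM. In vehicle it raised 12 and lowered 8, a total of 20, where 35.8% of all genes were called, 16.6% as higher and 19.2% as lower. Library totals as the only scaling gave 1579 genes higher and 2702 lower here, against 1976 and 2282 with TMM. The median log2 change of the members was 0.017 with IFNγ and 0.063 in vehicle, against -0.0045 and -0.0081 over all genes tested in the same comparisons. IFNγ raised 20 and lowered 1 of the 37 members in Cop1-loss cells, where 34.2% of all genes were called, 18.1% as higher and 16.1% as lower. It raised 20 and lowered 4 in Rosa26 cells, where 32.8% were called, 16.6% as higher and 16.2% as lower. The members' median response was 0.083 in Cop1-loss and 0.10 in Rosa26 cells, against -0.0059 and -0.0085 over all genes. None of these calls reached a 2-fold change. The members were chosen with earlier results of these data known, so their shares and medians are not an independent comparison with all genes. Exons of 15 members overlap a gene on the other strand. The strand setting of the counting is not stated in the labels, so how reads in the shared stretches were counted is not known. The length of these stretches was not measured. Besides those described with a partner further on, the members with such an overlap are Mxi1 (Gm10197), Nop14 (Gm15522), Wdr43 (CT010429.2), Wdr12 (Carf), Nhp2 (Rmnd5b), Pes1 (4930556J24Rik) and Npm3 (Gm15491).

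**Figure D1:**
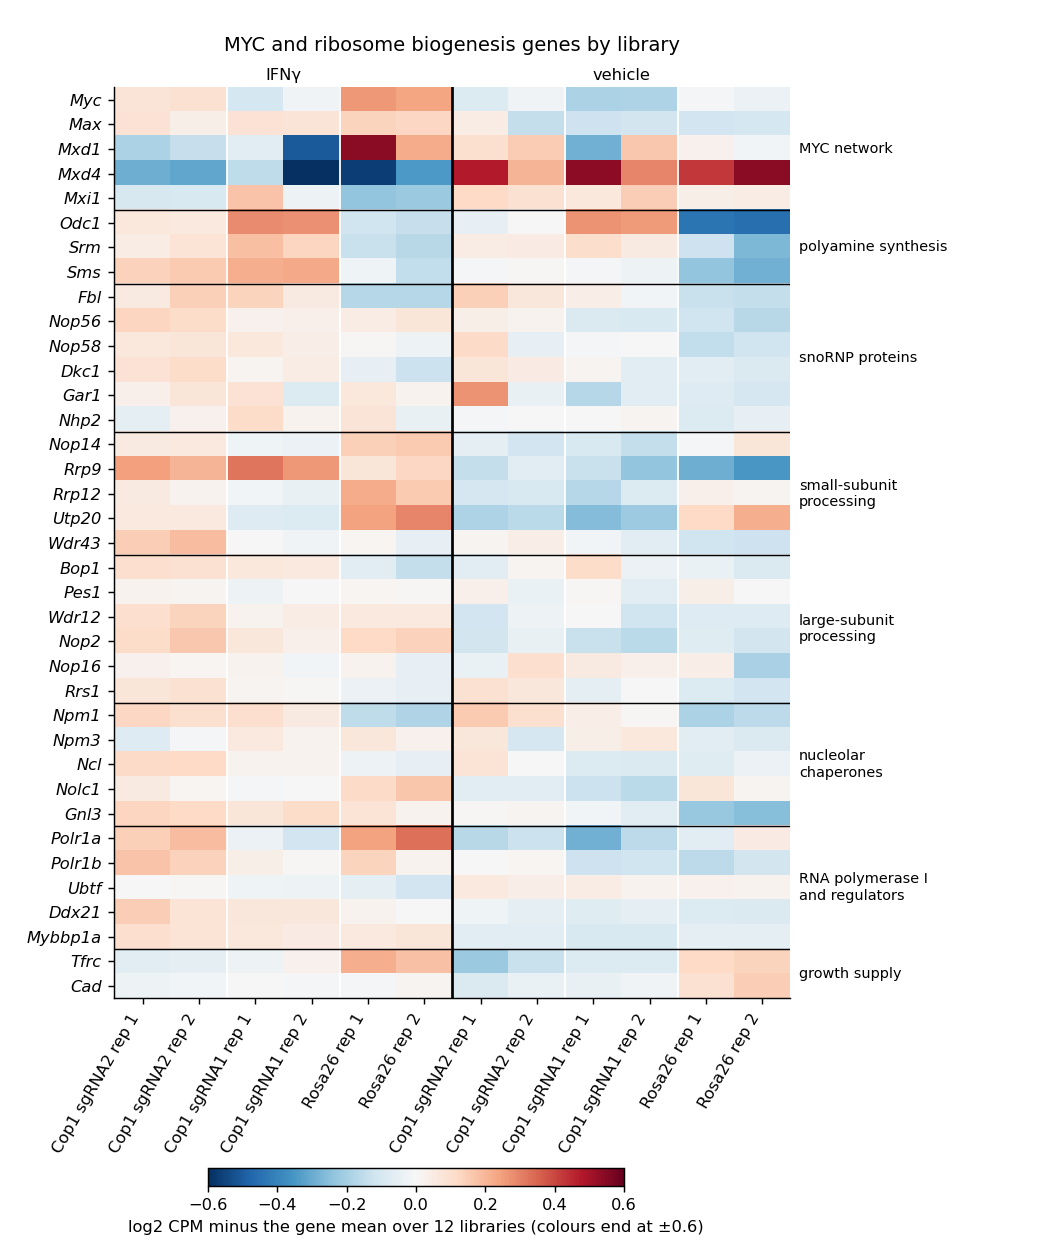
Rows are the 37 tested members by role and columns are the 12 libraries, IFNγ at the left and vehicle at the right. Colour is the log2 CPM minus the gene's mean over the 12 libraries, and Odc1 stands out as low in both Rosa26 vehicle libraries, while Mxd4 is high in all 6 vehicle libraries.

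The MYC network moved in parts. Myc, the transcription factor itself (GRCm38 chromosome 15, 61985391 to 61990374, plus strand), was lower with loss of Cop1 and higher with IFNγ. With IFNγ, Myc had 267 and 269 CPM in sgRNA2 cells, 236 and 249.7 CPM in sgRNA1 cells and 303 and 298 CPM in Rosa26 cells. In vehicle it had 239 and 249 CPM in sgRNA2 cells, 222 and 222 CPM in sgRNA1 cells and 251 and 247 CPM in Rosa26 cells. Every Cop1-loss library lay below both Rosa26 libraries with IFNγ, whereas in vehicle the sgRNA2 libraries overlapped them. The fitted change with loss of Cop1 was -0.24 ± 0.029 with IFNγ (adjusted p = 5.36e-09) and -0.098 ± 0.029 in vehicle (adjusted p = 0.00705), and the call in vehicle ended without Rosa26 vehicle replicate 1 (-0.083). IFNγ raised Myc by 0.13 ± 0.024 in Cop1-loss cells (adjusted p = 1.82e-05) and by 0.27 ± 0.033 in Rosa26 cells (adjusted p = 8.75e-09). The difference between these responses, Cop1 loss minus Rosa26, was -0.14 ± 0.041 (adjusted p = 0.031). That call ended in 8 of the 12 fits that left out 1 library, namely each Rosa26 library, replicate 1 of sgRNA1 in either treatment, sgRNA2 IFNγ replicate 1 and sgRNA2 vehicle replicate 2 (-0.15 to -0.12), and it also ended under DESeq2. Myc was also higher in sgRNA2 than in sgRNA1 cells, by 0.14 ± 0.034 with IFNγ (adjusted p = 0.00343) and 0.14 ± 0.034 in vehicle (adjusted p = 0.00781). The first call ended without sgRNA1 IFNγ replicate 1 (0.10), and the other without sgRNA1 vehicle replicate 1 (0.14) or sgRNA2 vehicle replicate 2 (0.11).

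Max, the partner of MYC, rose with IFNγ by 0.16 ± 0.035 in Cop1-loss cells (adjusted p = 0.000397) and 0.24 ± 0.049 in Rosa26 cells (adjusted p = 0.000152), and its change with loss of Cop1 was -0.055 ± 0.042 with IFNγ and 0.028 ± 0.043 in vehicle, neither called. Mxd4, a repressor that competes for MAX, was the member with the largest fitted decrease with IFNγ. With IFNγ it had 7.87 and 7.77 CPM in sgRNA2 cells, 8.69 and 5.52 CPM in sgRNA1 cells and 6.53 and 7.605 CPM in Rosa26 cells. With vehicle it had 13.4 and 11.1 CPM in sgRNA2 cells, 14.02 and 11.8 CPM in sgRNA1 cells and 12.97 and 14.1 CPM in Rosa26 cells. The IFNγ and vehicle libraries did not overlap in any population. The change was -0.75 ± 0.11 in Cop1-loss cells (adjusted p = 2.25e-07) and -0.94 ± 0.15 in Rosa26 cells (adjusted p = 3.38e-06), and its exons overlap the antisense gene Gm42846. Mxi1, of the same repressor family, had 37.7 and 37.8 CPM in sgRNA2 cells, 45.4 and 39.5 CPM in sgRNA1 cells and 34.2 and 34.5 CPM in Rosa26 cells with IFNγ and 43.8 and 42.9 CPM in sgRNA2 cells, 42.1 and 44.6 CPM in sgRNA1 cells and 41.2 and 41.6 CPM in Rosa26 cells with vehicle. It fell in Rosa26 cells (-0.27 ± 0.070, adjusted p = 0.00232), its change in Cop1-loss cells of -0.11 ± 0.049 was not called, and with IFNγ it was higher with loss of Cop1 (0.22 ± 0.062, adjusted p = 0.00336). Its test of unequal responses was not called (0.16 ± 0.085, adjusted p = 0.334).

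Mxd1, another MAX-binding repressor, was expressed at a low level. With IFNγ it had 5.52 and 5.72 CPM in sgRNA2 cells, 6.004 and 4.44 CPM in sgRNA1 cells and 9.17 and 7.34 CPM in Rosa26 cells, and with vehicle 6.73 and 6.98 CPM in sgRNA2 cells, 5.15 and 7.05 CPM in sgRNA1 cells and 6.403 and 6.23 CPM in Rosa26 cells. Both Rosa26 IFNγ libraries lay above the rest. Loss of Cop1 lowered it with IFNγ (-0.61 ± 0.15, adjusted p = 0.00121), a call lost without Rosa26 IFNγ replicate 1 (-0.44), and its change in vehicle was 0.022 ± 0.15 (not called). The IFNγ change of Mxd1 in Rosa26 cells was 0.39 and its difference of responses -0.63, neither called.

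**Figure D2:**
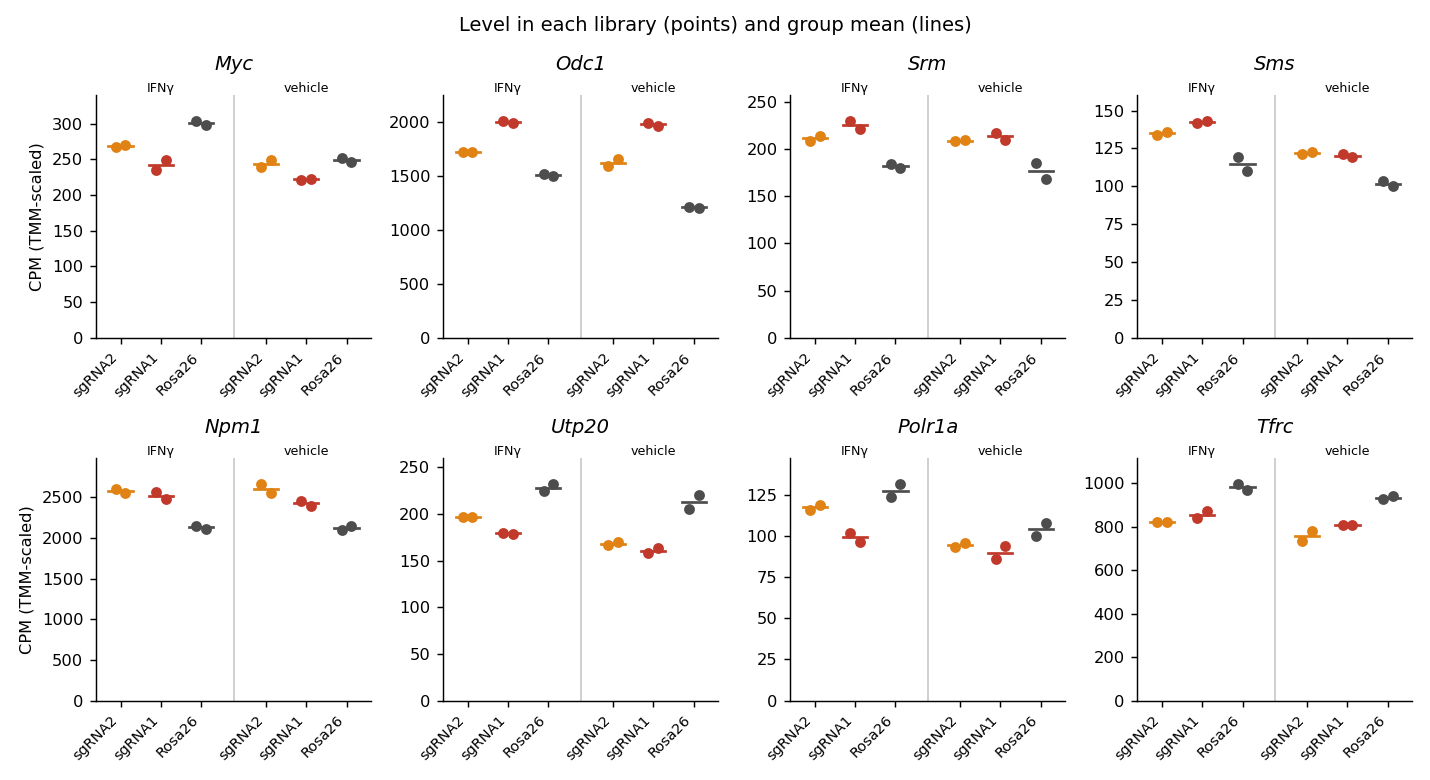
CPM of 8 members in each library (points; lines mark the mean of 2), with IFNγ left and vehicle right in each panel and sgRNA2, sgRNA1 and Rosa26 in that order. In both treatments the Cop1-loss libraries lie above Rosa26 for Odc1, Srm, Sms and Npm1 and below it for Utp20, Polr1a and Tfrc, without overlap.

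All 3 polyamine enzymes were higher with loss of Cop1, with IFNγ and in vehicle, where 19.8% and 16.6% of all genes tested were called higher. Odc1 (GRCm38 chromosome 12, 17544794 to 17551505, plus strand), which makes putrescine from ornithine in the rate-limiting step, had the largest of their changes. With IFNγ it had 1723 and 1720.4 CPM in sgRNA2 cells, 2007 and 1995 CPM in sgRNA1 cells and 1520.2 and 1499.9 CPM in Rosa26 cells. With vehicle it had 1593 and 1655 CPM in sgRNA2 cells, 1990.5 and 1968 CPM in sgRNA1 cells and 1216 and 1206 CPM in Rosa26 cells. The 3 populations were separate in both treatments, sgRNA1 highest and Rosa26 lowest. Loss of Cop1 raised Odc1 by 0.30 ± 0.020 with IFNγ (adjusted p = 8.98e-16) and 0.57 ± 0.021 in vehicle (adjusted p = 1.43e-24), and the change in sgRNA2 over sgRNA1 cells was -0.22 ± 0.023 with IFNγ (adjusted p = 8.46e-09) and -0.29 ± 0.023 in vehicle (adjusted p = 7.58e-12). IFNγ changed it by 0.050 ± 0.016 in Cop1-loss cells (adjusted p = 0.0154) and 0.32 ± 0.023 in Rosa26 cells (adjusted p = 4.67e-15). The difference of these responses was -0.27 ± 0.029 (adjusted p = 5.24e-09), and it was called without each library in turn. The response in Cop1-loss cells was no longer called in 5 of the 12 fits without 1 library, those without sgRNA1 vehicle replicate 2, sgRNA1 IFNγ replicate 1, sgRNA2 vehicle replicate 1 and either sgRNA2 IFNγ replicate (0.036 to 0.049), or with library totals as the only scaling (0.020).

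Srm (GRCm38 chromosome 4, 148591503 to 148594993, plus strand), spermidine synthase, had 208 and 214 CPM in sgRNA2 cells, 229 and 221 CPM in sgRNA1 cells and 184 and 180.1 CPM in Rosa26 cells with IFNγ. It had 209 and 209 CPM in sgRNA2 cells, 217 and 209.7 CPM in sgRNA1 cells and 185 and 168 CPM in Rosa26 cells with vehicle. Sms (GRCm38 chromosome X, 157443855 to 157492287, minus strand), spermine synthase, had 134 and 136 CPM in sgRNA2 cells, 142 and 143 CPM in sgRNA1 cells and 119.7 and 110.1 CPM in Rosa26 cells with IFNγ. It had 121 and 123 CPM in sgRNA2 cells, 121 and 119 CPM in sgRNA1 cells and 103 and 99.9 CPM in Rosa26 cells with vehicle. For both enzymes every Cop1-loss library lay above every Rosa26 library of its treatment. With loss of Cop1, Srm rose by 0.26 ± 0.033 with IFNγ (adjusted p = 2.16e-08) and 0.26 ± 0.033 in vehicle (adjusted p = 2.74e-08). Sms rose by 0.27 ± 0.037 with IFNγ (adjusted p = 1.11e-07) and 0.25 ± 0.038 in vehicle (adjusted p = 8.05e-07). IFNγ raised Sms by 0.19 ± 0.030 in Cop1-loss cells (adjusted p = 1.04e-06) and 0.18 ± 0.044 in Rosa26 cells (adjusted p = 0.00144), the Rosa26 call ending without Rosa26 IFNγ replicate 1 (0.12). For Srm the IFNγ changes were 0.045 ± 0.027 in Cop1-loss and 0.045 ± 0.038 in Rosa26 cells, neither called.

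**Figure D3:**
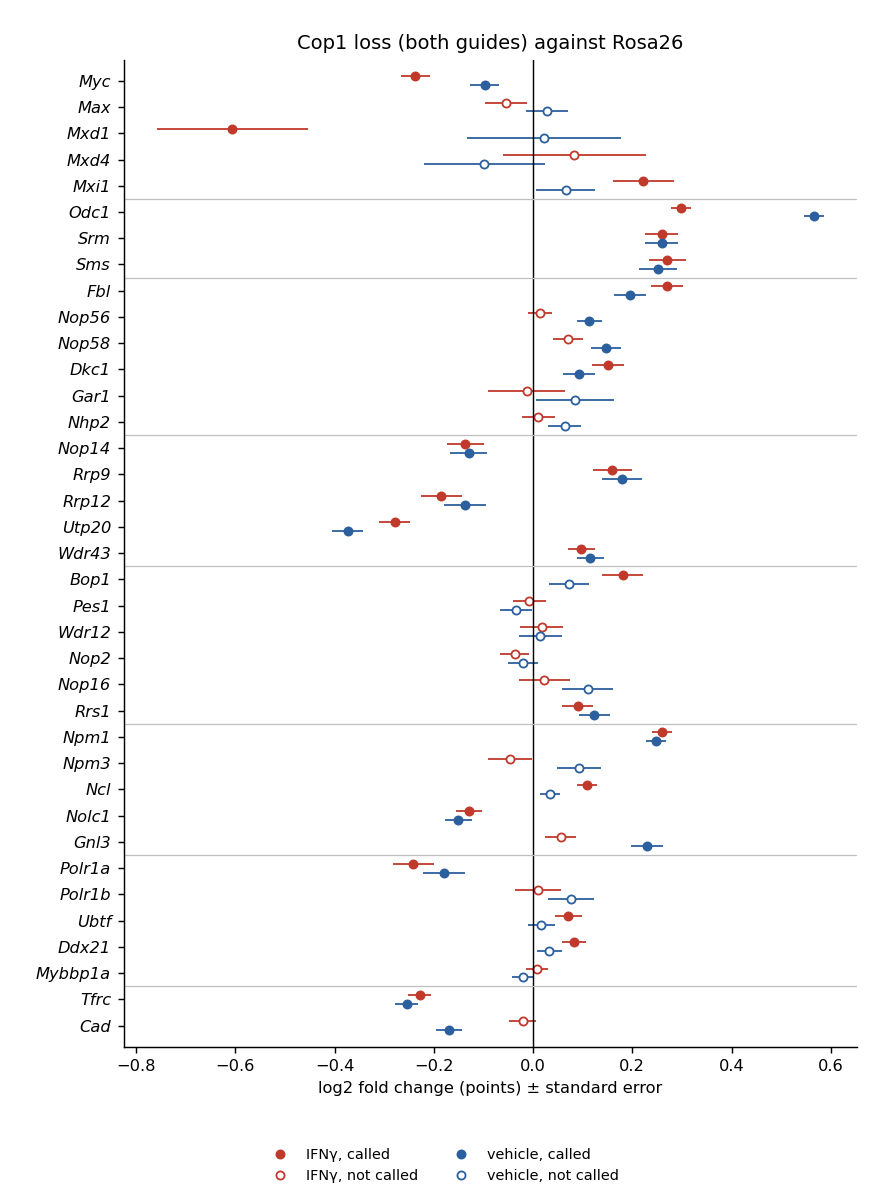
Log2 fold change of each tested member with loss of Cop1, the mean of both guides over Rosa26, with IFNγ (upper point of each row) and in vehicle (lower point). Bars are ± 1 standard error and filled points are called at an adjusted p under 0.05. Odc1 in vehicle (0.57) lies farthest right and Mxd1 with IFNγ (-0.61) farthest left.

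Among the snoRNP proteins, Fbl and Dkc1 were higher with loss of Cop1 in both treatments, and Nop56 and Nop58 were called in vehicle. Fbl (GRCm38 chromosome 7, 28169710 to 28179269, plus strand) encodes fibrillarin, the methyltransferase of box C/D snoRNPs. It had 209 and 222 CPM in sgRNA2 cells, 221 and 209 CPM in sgRNA1 cells and 178 and 179 CPM in Rosa26 cells with IFNγ and 222 and 210.4 CPM in sgRNA2 cells, 206 and 199 CPM in sgRNA1 cells and 183 and 182 CPM in Rosa26 cells with vehicle. The Cop1-loss libraries were all above the Rosa26 libraries, by 0.27 ± 0.033 with IFNγ (adjusted p = 6.26e-09) and 0.19 ± 0.032 in vehicle (adjusted p = 5.35e-06). Dkc1, the pseudouridine synthase of H/ACA snoRNPs, rose by 0.15 ± 0.032 with IFNγ (adjusted p = 0.000187) and 0.092 ± 0.032 in vehicle (adjusted p = 0.022). The vehicle call ended without sgRNA1 vehicle replicate 1 (0.071), Rosa26 vehicle replicate 1 (0.11) or Rosa26 vehicle replicate 2 (0.080), and with library totals as the only scaling (0.066). Nop58, a box C/D core protein, changed by 0.071 ± 0.030 with IFNγ (adjusted p = 0.0567, not called) and rose by 0.15 ± 0.030 in vehicle (adjusted p = 0.000138).

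Nop56, the partner of Nop58 in box C/D snoRNPs, had 494 and 487 CPM in sgRNA2 cells, 459.7 and 461 CPM in sgRNA1 cells and 466 and 475 CPM in Rosa26 cells with IFNγ. It had 463 and 459 CPM in sgRNA2 cells, 425 and 425 CPM in sgRNA1 cells and 416 and 403 CPM in Rosa26 cells with vehicle. In vehicle all Cop1-loss libraries were above Rosa26 (0.11 ± 0.025, adjusted p = 0.000303), and with IFNγ the groups overlapped (0.013 ± 0.025, adjusted p = 0.707). IFNγ raised Nop56 by 0.10 ± 0.020 in Cop1-loss cells (adjusted p = 6.3e-05) and 0.20 ± 0.028 in Rosa26 cells (adjusted p = 1.91e-07), and the difference of these responses was -0.10 ± 0.035 (adjusted p = 0.0836, not called). It was higher in sgRNA2 than in sgRNA1 cells with IFNγ (0.091 ± 0.028, adjusted p = 0.0327) and in vehicle (0.12 ± 0.028, adjusted p = 0.00658). The IFNγ call ended without any 1 of its 4 libraries (0.081 to 0.10) and under DESeq2, and the vehicle call without sgRNA1 vehicle replicate 1 (0.12) or replicate 2 (0.12). IFNγ also raised Nop58 in Rosa26 cells (0.12 ± 0.035, adjusted p = 0.00534), a call lost without Rosa26 IFNγ replicate 1 (0.10) or Rosa26 vehicle replicate 1 (0.11). Gar1 and Nhp2, core proteins of H/ACA snoRNPs, had no call, with changes between -0.013 and 0.13 for Gar1 and 0.011 and 0.080 for Nhp2 in the 4 comparisons of Cop1 loss and IFNγ. Exons of Nop56 overlap Idh3b and those of Dkc1 overlap Mpp1, each on the other strand. With loss of Cop1, Idh3b had -0.19 with IFNγ and -0.14 in vehicle.

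All 5 small-subunit factors were called with loss of Cop1 in both treatments, Rrp9 and Wdr43 as higher and Utp20, Rrp12 and Nop14 as lower. Of all genes tested, 40.6% were called with IFNγ and 35.8% in vehicle, and of 35 other small-subunit genes 31.4% and 40%. Utp20 (GRCm38 chromosome 10, 88746607 to 88826804, minus strand), a large component of the small-subunit processome, had 197 and 197 CPM in sgRNA2 cells, 179 and 179 CPM in sgRNA1 cells and 224 and 232 CPM in Rosa26 cells with IFNγ. With vehicle it had 167 and 169.7 CPM in sgRNA2 cells, 158 and 163 CPM in sgRNA1 cells and 206 and 220.2 CPM in Rosa26 cells. No Cop1-loss library reached the Rosa26 level. The change was -0.28 ± 0.031 with IFNγ (adjusted p = 5.98e-10) and -0.37 ± 0.031 in vehicle (adjusted p = 3.76e-13). Rrp12, which takes part in export and maturation of pre-ribosomes, fell by 0.19 ± 0.041 with IFNγ (adjusted p = 0.000323) and 0.14 ± 0.042 in vehicle (adjusted p = 0.00863), the vehicle call ending without sgRNA1 vehicle replicate 1 (-0.11) or Rosa26 vehicle replicate 1 (-0.13). Nop14, a processome factor, fell by 0.14 ± 0.037 with IFNγ (adjusted p = 0.00272) and 0.13 ± 0.037 in vehicle (adjusted p = 0.00518), the vehicle call ending without Rosa26 vehicle replicate 2 (-0.087).

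Rrp9 (GRCm38 chromosome 9, 106475963 to 106485424, plus strand), a protein of the U3 snoRNP, had 130.2 and 126 CPM in sgRNA2 cells, 137 and 132 CPM in sgRNA1 cells and 116 and 119.6 CPM in Rosa26 cells with IFNγ. With vehicle it had 99.4 and 105 CPM in sgRNA2 cells, 100.3 and 93.2 CPM in sgRNA1 cells and 89.7 and 86.2 CPM in Rosa26 cells. Every IFNγ library lay above every vehicle library, and the Cop1-loss libraries lay above Rosa26 in each treatment. IFNγ raised it by 0.40 ± 0.032 in Cop1-loss cells (adjusted p = 7.38e-14) and 0.42 ± 0.047 in Rosa26 cells (adjusted p = 7.83e-10), and loss of Cop1 by 0.16 ± 0.039 with IFNγ (adjusted p = 0.00105) and 0.18 ± 0.041 in vehicle (adjusted p = 0.000551). Exons of Rrp9 overlap Parp3 on the other strand, and Parp3 rose with IFNγ by 1.60 in Cop1-loss and 1.54 in Rosa26 cells. Without the strand setting, reads of Parp3 in the shared stretch may be part of the IFNγ change of Rrp9, which was not tested. With loss of Cop1, Parp3 changed by 0.068 with IFNγ and 0.017 in vehicle, neither called. The other 4 small-subunit factors also rose with IFNγ, where 18.1% of all genes tested were called higher in Cop1-loss and 16.6% in Rosa26 cells. Utp20 rose by 0.19 ± 0.026 in Cop1-loss cells (adjusted p = 4.42e-08) and 0.099 ± 0.035 in Rosa26 cells (adjusted p = 0.0273). Nop14, Rrp12 and Wdr43 rose by 0.083 to 0.12 in Cop1-loss and 0.10 to 0.17 in Rosa26 cells. In Rosa26 cells the calls of Nop14, Rrp12 and Wdr43 ended without Rosa26 IFNγ replicate 1 (0.13, 0.13 and 0.072), and that of Utp20 without Rosa26 IFNγ replicate 2 (0.075) or Rosa26 vehicle replicate 1 (0.052). Nop14 was also not called without Rosa26 IFNγ replicate 2 (0.11) or Rosa26 vehicle replicate 1 (0.079), and Wdr43 without Rosa26 vehicle replicate 1 or 2 (0.10 and 0.10). With library totals as the only scaling and under DESeq2, Nop14 and Utp20 were not called in Rosa26 cells. In Cop1-loss cells the call of Rrp12 ended without sgRNA1 vehicle replicate 1 (0.094), and that of Wdr43 with library totals as the only scaling (0.053).

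Wdr43, a subunit that joins the precursor early, had 309.7 and 317 CPM in sgRNA2 cells, 278 and 275 CPM in sgRNA1 cells and 281 and 269.6 CPM in Rosa26 cells with IFNγ. It had 282 and 287 CPM in sgRNA2 cells, 276 and 267 CPM in sgRNA1 cells and 257 and 256 CPM in Rosa26 cells with vehicle. The sgRNA2 libraries stood above the others with IFNγ, and sgRNA1 overlapped Rosa26. Loss of Cop1 raised it by 0.097 ± 0.028 with IFNγ (adjusted p = 0.00453) and 0.12 ± 0.028 in vehicle (adjusted p = 0.00103), the IFNγ call ending without Rosa26 IFNγ replicate 2 (0.068) and with library totals as the only scaling (0.055). It was 0.18 ± 0.032 higher in sgRNA2 than in sgRNA1 cells with IFNγ (adjusted p = 0.000142). Utp20 was likewise higher in sgRNA2 than in sgRNA1 cells with IFNγ (0.14 ± 0.036, adjusted p = 0.0103), a call lost without any 1 of the 4 libraries (0.14 in each fit to 2 decimals).

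Of the 6 large-subunit factors, 2 were called with loss of Cop1 with IFNγ and 1 in vehicle. Of all genes tested, 40.6% and 35.8% were called in the same order. Bop1, Pes1 and Wdr12 form the PeBoW complex, and of these 3 Bop1 was called, with IFNγ. Bop1 had 118 to 122 CPM in Cop1-loss cells and 103 to 108 CPM in Rosa26 cells with IFNγ (0.18 ± 0.041, adjusted p = 0.000389), and 108 to 122 CPM in Cop1-loss cells and 107 to 110.3 CPM in Rosa26 cells in vehicle (0.072 ± 0.041, not called). Exons of Bop1 overlap Mroh1 on the other strand, which had -0.39 with IFNγ and -0.61 in vehicle with loss of Cop1. Pes1 stayed between -0.035 and 0.018 in the 4 comparisons of Cop1 loss and IFNγ, with no call. Rrs1, which helps to place the 5S particle in yeast, rose with loss of Cop1 by 0.090 ± 0.031 with IFNγ (adjusted p = 0.0199) and 0.12 ± 0.031 in vehicle (adjusted p = 0.00173). The vehicle call ended without Rosa26 vehicle replicate 2 (0.11), and the IFNγ call without sgRNA2 IFNγ replicate 2 (0.079), Rosa26 IFNγ replicate 1 (0.095) or replicate 2 (0.084), and with library totals as the only scaling (0.048).

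Nop2 and Wdr12 rose with IFNγ. Nop2 (GRCm38 chromosome 6, 125131909 to 125144753, plus strand), a methyltransferase of the large-subunit RNA, had 243 and 252 CPM in sgRNA2 cells, 236 and 230.4 CPM in sgRNA1 cells and 245 and 248 CPM in Rosa26 cells with IFNγ. It had 209 and 219 CPM in sgRNA2 cells, 206 and 202 CPM in sgRNA1 cells and 214 and 209 CPM in Rosa26 cells with vehicle. All IFNγ libraries were above all vehicle libraries, by 0.20 ± 0.024 in Cop1-loss cells (adjusted p = 3.26e-09) and 0.22 ± 0.034 in Rosa26 cells (adjusted p = 1.39e-06), and its changes with loss of Cop1 were -0.037 ± 0.029 with IFNγ and -0.020 ± 0.030 in vehicle, neither called. Wdr12 rose by 0.14 ± 0.035 in Cop1-loss cells (adjusted p = 0.00172) and 0.14 ± 0.050 in Rosa26 cells (adjusted p = 0.0331), the Rosa26 call ending without any 1 of the 4 Rosa26 libraries (0.14 in each fit to 2 decimals), with library totals as the only scaling and under DESeq2. Nop16, a nucleolar protein of the large-subunit pathway, had no call, with changes between -0.028 and 0.11 in the 4 comparisons.

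Of the nucleolar chaperones and shuttling proteins, Npm1 rose and Nolc1 fell with loss of Cop1 in both treatments. Npm1 (GRCm38 chromosome 11, 33152287 to 33163206, minus strand), nucleophosmin, had 2481 to 2608 CPM in Cop1-loss cells and 2110.3 to 2151 CPM in Rosa26 cells with IFNγ and 2399 to 2662 CPM in Cop1-loss cells and 2093 to 2145 CPM in Rosa26 cells in vehicle, with no overlap. The change was 0.26 ± 0.021 with IFNγ (adjusted p = 1.04e-13) and 0.25 ± 0.021 in vehicle (adjusted p = 5.9e-13), while its IFNγ responses were 0.020 ± 0.017 in Cop1-loss and 0.0081 ± 0.024 in Rosa26 cells, neither called. Nolc1, a chaperone of snoRNPs, fell by 0.13 ± 0.027 with IFNγ (adjusted p = 0.000125) and 0.15 ± 0.027 in vehicle (adjusted p = 1.53e-05). IFNγ raised Nolc1 by 0.12 ± 0.022 in Cop1-loss cells (adjusted p = 2.81e-05) and 0.096 ± 0.031 in Rosa26 cells (adjusted p = 0.0134), and the Rosa26 call ended without Rosa26 IFNγ replicate 2 (0.070) or Rosa26 vehicle replicate 2 (0.068). Npm3, a relative of Npm1, had no call, with changes between -0.046 and 0.12 in the 4 comparisons.

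Gnl3 (GRCm38 chromosome 14, 31012433 to 31019152, minus strand), nucleostemin, had 188 and 186 CPM in sgRNA2 cells, 180.4 and 185 CPM in sgRNA1 cells and 181 and 174 CPM in Rosa26 cells with IFNγ. It had 173 and 174 CPM in sgRNA2 cells, 169.6 and 164 CPM in sgRNA1 cells and 146 and 144 CPM in Rosa26 cells with vehicle. The Rosa26 vehicle libraries were below all others, and with IFNγ the groups overlapped. Loss of Cop1 changed Gnl3 by 0.056 ± 0.031 with IFNγ (adjusted p = 0.155, not called) and raised it by 0.23 ± 0.032 in vehicle (adjusted p = 1.76e-07). IFNγ raised it by 0.12 ± 0.026 in Cop1-loss cells (adjusted p = 0.000181) and 0.29 ± 0.037 in Rosa26 cells (adjusted p = 1.23e-08). The difference of the responses was -0.17 ± 0.045 (adjusted p = 0.0125), and its call ended without Rosa26 IFNγ replicate 1 (-0.14) or Rosa26 vehicle replicate 2 (-0.16). Exons of Gnl3 overlap Pbrm1 on the other strand, which had no call in the comparisons of Cop1 loss or IFNγ. Ncl, nucleolin, had 2487 and 2492 CPM in sgRNA2 cells, 2326 and 2332 CPM in sgRNA1 cells and 2249 and 2217 CPM in Rosa26 cells with IFNγ. It had 2426 and 2302 CPM in sgRNA2 cells, 2166 and 2162 CPM in sgRNA1 cells and 2179 and 2237 CPM in Rosa26 cells with vehicle. With IFNγ all Cop1-loss libraries were above Rosa26 (0.11 ± 0.020, adjusted p = 2.68e-05), and in vehicle the sgRNA1 libraries were below Rosa26 and the sgRNA2 libraries above it (0.035 ± 0.020, not called). The sgRNA2 cells exceeded sgRNA1 cells by 0.096 ± 0.023 with IFNγ (adjusted p = 0.00509) and 0.13 ± 0.023 in vehicle (adjusted p = 0.000214), the IFNγ call ending without sgRNA1 IFNγ replicate 1 (0.095), sgRNA2 IFNγ replicate 1 (0.097) or replicate 2 (0.093). IFNγ raised Ncl by 0.090 ± 0.016 in Cop1-loss cells (adjusted p = 2.02e-05), and the Rosa26 change was 0.016 ± 0.023 (not called).

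For RNA polymerase I, Polr1a was lower with loss of Cop1 and higher with IFNγ. Polr1a (GRCm38 chromosome 6, 71909053 to 71984935, plus strand), the largest subunit of the enzyme, had 116 and 119 CPM in sgRNA2 cells, 102 and 96.6 CPM in sgRNA1 cells and 124 and 131 CPM in Rosa26 cells with IFNγ. It had 93.3 and 95.6 CPM in sgRNA2 cells, 85.7 and 93.6 CPM in sgRNA1 cells and 100.2 and 108 CPM in Rosa26 cells with vehicle. All Cop1-loss libraries lay below the Rosa26 libraries of their treatment. The change was -0.24 ± 0.042 with IFNγ (adjusted p = 7.37e-06) and -0.18 ± 0.043 in vehicle (adjusted p = 0.000812), the vehicle call ending without Rosa26 vehicle replicate 2 (-0.12). IFNγ raised it by 0.23 ± 0.035 in Cop1-loss cells (adjusted p = 6.87e-07) and 0.29 ± 0.048 in Rosa26 cells (adjusted p = 4.2e-06). With IFNγ, sgRNA2 cells exceeded sgRNA1 cells by 0.24 ± 0.049 (adjusted p = 0.000813). Exons of Polr1a overlap the antisense gene Gm26628. Polr1b, the other large catalytic subunit, had 67.6 to 75.8 CPM in Cop1-loss cells and 68.4 to 73.8 CPM in Rosa26 cells with IFNγ and 61.8 to 67.8 CPM in Cop1-loss cells and 60.3 to 62.4 CPM in Rosa26 cells in vehicle. It rose with IFNγ by 0.15 ± 0.038 in Cop1-loss cells (adjusted p = 0.00203) and 0.21 ± 0.054 in Rosa26 cells (adjusted p = 0.00176), the Rosa26 call ending without Rosa26 IFNγ replicate 1 (0.16), and had no call with loss of Cop1.

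Ubtf, the factor that opens ribosomal DNA for the polymerase, had an IFNγ change of -0.053 ± 0.022 in Cop1-loss cells (adjusted p = 0.0628, not called) and fell in Rosa26 cells (-0.11 ± 0.032, adjusted p = 0.0072). That call ended without Rosa26 IFNγ replicate 2 (-0.078) or Rosa26 vehicle replicate 1 (-0.10). With IFNγ it was higher with loss of Cop1 (0.071 ± 0.028, adjusted p = 0.0365), a call lost without any 1 of sgRNA1 IFNγ replicates 1 and 2, sgRNA2 IFNγ replicates 1 and 2 and Rosa26 IFNγ replicate 2 (0.043 to 0.073), under DESeq2, with no low-count filter, and with library totals as the only scaling (0.029). Ddx21, an RNA helicase of ribosomal transcription and processing, rose with IFNγ by 0.14 ± 0.020 in Cop1-loss cells (adjusted p = 1.22e-07) and 0.093 ± 0.028 in Rosa26 cells (adjusted p = 0.00879). The Rosa26 call ended without Rosa26 IFNγ replicate 1 (0.083) or Rosa26 vehicle replicate 2 (0.091). Its rise with loss of Cop1 with IFNγ (0.083 ± 0.025, adjusted p = 0.00576) ended without Rosa26 IFNγ replicate 2 (0.072) and with library totals as the only scaling (0.041). Mybbp1a, a nucleolar regulator that binds MYB, rose with IFNγ by 0.15 ± 0.018 in Cop1-loss cells (adjusted p = 2.84e-09) and 0.13 ± 0.026 in Rosa26 cells (adjusted p = 0.000128), and its changes with loss of Cop1 were 0.0081 ± 0.022 with IFNγ and -0.020 ± 0.022 in vehicle, neither called. Spns2, whose exons overlap those of Mybbp1a on the other strand, had 0.99 with IFNγ and 1.01 in vehicle with loss of Cop1.

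**Figure D4:**
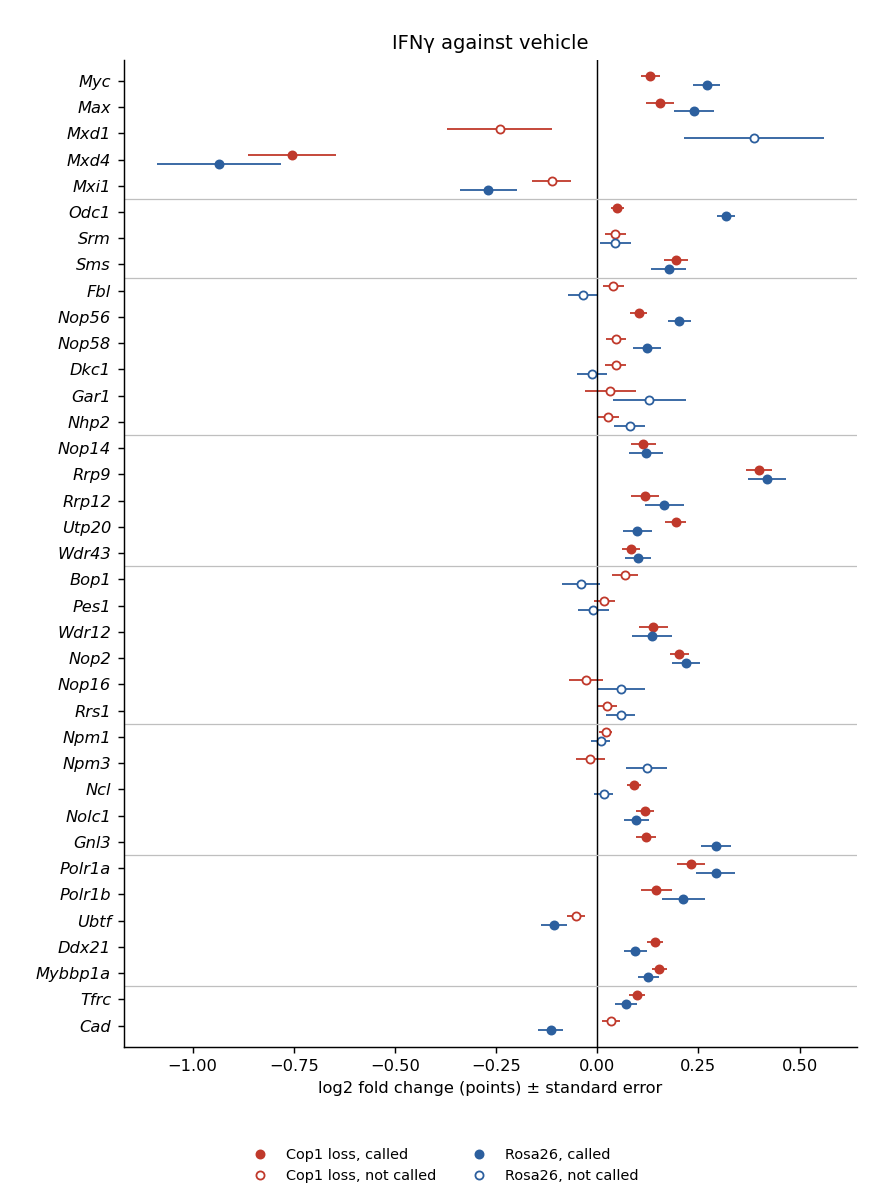
Log2 fold change of each tested member with IFNγ over vehicle in Cop1-loss cells (upper point of each row) and Rosa26 cells (lower point). Bars are ± 1 standard error and filled points are called at an adjusted p under 0.05. Most points lie right of 0, with Mxd4 farthest left (-0.75 in Cop1-loss and -0.94 in Rosa26 cells) and Rrp9 the highest called member (0.40 and 0.42).

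Both genes that supply growth were lower with loss of Cop1 in vehicle, where 19.2% of all genes tested were called lower. Tfrc (GRCm38 chromosome 16, 32608920 to 32632794, plus strand), the transferrin receptor that brings iron into cells, had 819.6 and 822 CPM in sgRNA2 cells, 839 and 871 CPM in sgRNA1 cells and 996 and 967 CPM in Rosa26 cells with IFNγ. It had 735 and 781 CPM in sgRNA2 cells, 808 and 809 CPM in sgRNA1 cells and 929 and 940.1 CPM in Rosa26 cells with vehicle. The Cop1-loss libraries were below Rosa26 in both treatments, and the change was -0.23 ± 0.024 with IFNγ (adjusted p = 1.31e-10) and -0.26 ± 0.024 in vehicle (adjusted p = 1e-11). IFNγ raised Tfrc by 0.097 ± 0.020 in Cop1-loss cells (adjusted p = 8.97e-05) and 0.071 ± 0.028 in Rosa26 cells (adjusted p = 0.0433). The Rosa26 call ended without Rosa26 IFNγ replicate 1 (0.051), Rosa26 vehicle replicate 1 (0.064), Rosa26 vehicle replicate 2 (0.080) or sgRNA1 vehicle replicate 1 (0.072), with library totals as the only scaling and under DESeq2. In vehicle it was lower in sgRNA2 than in sgRNA1 cells (-0.093 ± 0.028, adjusted p = 0.0343), a call lost without sgRNA1 vehicle replicate 1 (-0.094) or 2 (-0.092) or sgRNA2 vehicle replicate 1 (-0.050), under DESeq2, with library totals as the only scaling and in a fit of these groups alone. Cad, the enzyme that starts pyrimidine synthesis, had 313 and 316 CPM in sgRNA2 cells, 319.9 and 318 CPM in sgRNA1 cells and 319 and 324 CPM in Rosa26 cells with IFNγ. It had 301 and 312 CPM in sgRNA2 cells, 310.5 and 315 CPM in sgRNA1 cells and 341 and 355 CPM in Rosa26 cells with vehicle. The vehicle groups were separate, with Cop1 loss lower (-0.17 ± 0.027, adjusted p = 1.66e-06), and the IFNγ groups overlapped, since 1 sgRNA1 library exceeded 1 Rosa26 library (-0.021 ± 0.027, not called). IFNγ changed Cad by 0.034 ± 0.022 in Cop1-loss cells (not called) and lowered it in Rosa26 cells (-0.12 ± 0.031, adjusted p = 0.00304), a call lost without Rosa26 vehicle replicate 2 (-0.086). The difference of the responses was 0.15 ± 0.038 (adjusted p = 0.0113), a call lost without sgRNA2 IFNγ replicate 2 (0.13), Rosa26 IFNγ replicate 1 (0.14) or Rosa26 vehicle replicate 2 (0.12).

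The IFNγ response differed between Cop1-loss and Rosa26 cells for 4 members, Cad as higher and Myc, Odc1 and Gnl3 as lower, where 5.74% of all genes tested were called, 3.38% as higher and 2.36% as lower. Odc1 was the member whose call held without each library. Between the guides, sgRNA2 differed from sgRNA1 in 7 members with IFNγ, 6 higher and 1 lower, where 9.41% of all genes were called, 5.07% as higher and 4.33% as lower. In vehicle it differed in 6, 4 higher and 2 lower, where 5.99% were called, 2.58% as higher and 3.41% as lower. With library totals as the only scaling 5 members were higher and 1 lower, beside 350 and 354 of all genes. In both treatments Myc, Ncl and Nop56 were higher and Odc1 was lower in sgRNA2 cells. Polr1a, Wdr43 and Utp20 were higher with IFNγ, and Npm1 was higher (0.10 ± 0.024, adjusted p = 0.00407) and Tfrc lower in vehicle. The Npm1 call ended without sgRNA1 vehicle replicate 2 (0.087) or sgRNA2 vehicle replicate 1 (0.072). The values for loss of Cop1 are means over populations that differ in these genes. With the 2 libraries of each population summed, so that the guides alone give the spread, the calls kept for loss of Cop1 were Mxd1, Srm, Sms, Fbl, Utp20, Npm1 and Tfrc with IFNγ and Srm, Utp20, Npm1 and Tfrc in vehicle. The change of Odc1, at 0.30 with IFNγ and 0.57 in vehicle, was not called in that fit, nor were the other calls for loss of Cop1. For IFNγ the calls kept were Mxd4, Sms, Rrp9 and Nop2 in Cop1-loss cells and Mxd4, Rrp9 and Gnl3 in Rosa26 cells. The summed fit did not pair IFNγ with vehicle within a guide population, so differences between the guides counted as spread. Rosa26 had no spread of its own in that fit and took that of the Cop1 guides. A call that ended there can therefore belong to a gene that responded alike with both guides.

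Further genes of these pathways were counted from lists that hold no member. These lists were also chosen with earlier results of these data known. With loss of Cop1, 40.6% of all genes tested were called with IFNγ and 35.8% in vehicle. Of 41 other large-subunit genes, 10 were higher and 4 lower with IFNγ (34.1% called), and 17 higher and 1 lower in vehicle (43.9%). Pinx1, a nucleolar protein that also binds telomerase, rose by 0.29 ± 0.068 with IFNγ (adjusted p = 0.000744) and 0.70 ± 0.070 in vehicle (adjusted p = 6.51e-11), and Mdn1, a very large ATPase of the large subunit, fell in vehicle (-0.28 ± 0.048, adjusted p = 1.12e-05). Of 35 other small-subunit genes tested, 7 were higher and 4 lower with IFNγ (31.4% called), and 12 higher and 2 lower in vehicle (40%). Wdr36 rose by 0.54 ± 0.027 with IFNγ (adjusted p = 2.39e-20) and 0.43 ± 0.026 in vehicle (adjusted p = 5.05e-17), and Pdcd11 fell by 0.26 ± 0.032 (adjusted p = 9.99e-09) and 0.24 ± 0.033 (adjusted p = 1.49e-07) in the same order. Both are subunits of the processome. Of 13 other polyamine genes, 4 were higher and 5 lower with IFNγ (69.2% called), and 4 higher and 3 lower in vehicle (53.8%). Oaz1, the antizyme that directs ODC1 to degradation, rose by 0.40 ± 0.026 with IFNγ (adjusted p = 2.2e-16) and 0.36 ± 0.026 in vehicle (adjusted p = 5.26e-15), while Arg2, an arginase that makes ornithine, had -0.68 ± 0.17 (adjusted p = 0.00149) and -0.77 ± 0.19 (adjusted p = 0.000966). Of 6 other MYC network genes tested, 2 were higher and 1 lower with IFNγ (50% called), and 1 higher and 3 lower in vehicle (66.7%). Mycl, a further MYC paralog, fell by 0.99 ± 0.17 with IFNγ (adjusted p = 7.41e-06) and 0.50 ± 0.18 in vehicle (adjusted p = 0.0237), and Mxd3 rose by 0.83 ± 0.098 with IFNγ (adjusted p = 3.7e-09). Of 12 other genes of the RNA polymerase I machinery, 2 were higher and 3 lower with IFNγ (41.7% called), and 2 higher and 0 lower in vehicle (16.7%). Of 18 nucleotide synthesis genes, 6 were higher and 1 lower with IFNγ (38.9% called), and 4 higher and 2 lower in vehicle (33.3%). With IFNγ the shares of the large-subunit, small-subunit and nucleotide lists were below that of all genes, and in vehicle those of the RNA polymerase I and nucleotide lists.

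With IFNγ over vehicle, 34.2% of all genes were called in Cop1-loss and 32.8% in Rosa26 cells. The other large-subunit genes had 19 higher and 1 lower of 41 in Cop1-loss cells (48.8% called), and 23 higher and 1 lower in Rosa26 cells (58.5%). Ddx24, an RNA helicase, rose by 0.36 ± 0.026 (adjusted p = 4e-15) in Cop1-loss and 0.43 ± 0.037 (adjusted p = 4.83e-13) in Rosa26 cells. The other small-subunit genes had 12 higher and 1 lower of 35 in Cop1-loss cells (37.1% called), and 17 higher and 1 lower in Rosa26 cells (51.4%). Noc4l, a processome factor, rose by 0.63 ± 0.032 (adjusted p = 1.53e-20) in Cop1-loss and 0.63 ± 0.046 (adjusted p = 3.55e-15) in Rosa26 cells. Of the other RNA polymerase I genes, 2 of 12 were higher in Cop1-loss (16.7%) and 4 of 12 in Rosa26 cells (33.3%), with 0 lower, shares below and close to those of all genes. Taf1d, a subunit of the selectivity factor of RNA polymerase I, rose by 0.30 ± 0.036 (adjusted p = 1.97e-09) in Cop1-loss and 0.63 ± 0.050 (adjusted p = 8.06e-14) in Rosa26 cells, and the difference of these responses was -0.32 ± 0.062 (adjusted p = 0.000475). With IFNγ, Taf1d was also higher in sgRNA2 than in sgRNA1 cells (0.20 ± 0.050, adjusted p = 0.00561). For the other polyamine genes the counts were 2 higher and 2 lower of 13 in Cop1-loss cells (30.8% called) and 3 higher and 3 lower in Rosa26 cells (46.2%). For nucleotide synthesis they were 5 higher and 1 lower of 18 in Cop1-loss cells and 3 higher and 3 lower in Rosa26 cells (33.3% called in each), close to the share of all genes. Among the other MYC network genes, 4 of 6 were higher in Cop1-loss cells (66.7%) and 2 of 6 lower in Rosa26 cells (33.3%). Mxd3, a MAX-binding repressor, fell in Rosa26 cells (-0.53 ± 0.11, adjusted p = 0.00025), and its difference of responses was 0.71 ± 0.14 (adjusted p = 0.000405). In vehicle, Mxd3 was also lower in sgRNA2 than in sgRNA1 cells (-0.38 ± 0.11, adjusted p = 0.0201). The alternative runs were read for members, not for single genes of these lists. Medians of the large-subunit list were 0.086 in Cop1-loss and 0.13 in Rosa26 cells, and of the small-subunit list 0.065 and 0.11 in the same order, beside the medians over all genes given above.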

How the data were processed

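The authors deposited raw counts per gene symbol for 12 libraries of bulk RNA. Per the labels' protocols, RNA was extracted with a QIAGEN kit and libraries were made from total RNA with an Illumina TruSeq kit. Per the submitters' processing notes, STAR 2.4.0, HTSeq and DESeq2 1.10 were used with mm10. The sources used here do not give the annotation, the strand setting or the rule for reads that match several places.

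From these counts, genes were kept with edgeR's filter (minimum count 10, minimum total 15), scaled by TMM and fitted in R 4.3.3 with edgeR 4.0.16, in 1 quasi-likelihood model with 6 group means and 6 residual degrees of freedom. The coefficient of variation between libraries of a group, beyond counting noise and as a value shared by all genes, was 3.21%. Contrasts were Cop1 loss (mean of the guides) over Rosa26, IFNγ over vehicle, the difference of IFNγ responses, and sgRNA2 over sgRNA1. Gene positions came from the GENCODE annotation of GRCm38. The code was tested on simulated data.

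Alternatives were other scalings, no filter, a replicate block, DESeq2 1.42.0, fits of only the groups compared, fits without each library, and summed libraries. The members and lists were chosen with earlier results of these data known. Values in every library are given for Myc and for the called members with the 3 largest increases and decreases in each comparison, and pathway lists name at most the called gene that changed most in each direction.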

Additional observations from a re-analysis of the deposited data

Results flagged for a closer look

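The IFNγ response of 4 members differed between Cop1-loss and Rosa26 cells by the test of the difference itself, edgeR's quasi-likelihood test of the interaction with Benjamini-Hochberg adjustment over 11904 genes. The IFNγ response of Odc1, the first enzyme of polyamine synthesis, was 0.050 ± 0.016 in Cop1-loss cells and 0.32 ± 0.023 in Rosa26 cells (log2, standard error). The difference, Cop1 loss minus Rosa26, was -0.27 ± 0.029 (adjusted p = 5.24e-09), with Rosa26 vehicle libraries the lowest of all 6 groups. For Gnl3, nucleostemin, the difference was -0.17 ± 0.045 (adjusted p = 0.0125), from responses of 0.12 in Cop1-loss and 0.29 in Rosa26 cells. For Myc the difference was -0.14 ± 0.041 (adjusted p = 0.031), from 0.13 in Cop1-loss and 0.27 in Rosa26 cells. Cad, of pyrimidine synthesis, had a difference of 0.15 ± 0.038 (adjusted p = 0.0113), from 0.034 in Cop1-loss and -0.12 in Rosa26 cells. Of these calls, that of Odc1 held without each library in turn, and none held with the libraries of each population summed. That fit did not pair IFNγ with vehicle within a guide population, so differences between the guides present in both treatments counted as spread. For that reason it cannot decide whether the differences of response hold across guides. In percent of Rosa26, Odc1 went from 134.1 with vehicle to 114.0 with IFNγ in sgRNA2 cells and from 163.4 to 132.5 in sgRNA1 cells. In the same order Gnl3 went from 119.3 to 105.1 and from 115.1 to 102.9. Myc went from 97.99 to 89.2 and from 89.13 to 80.72, and Cad from 87.96 to 97.87 and from 89.81 to 99.23. Each of the 4 thus moved the same way with both guides, and the guides were not tested singly.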

How the results depend on the processing

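None of the 104 calls of members in the 7 comparisons turned its direction under any alternative run. RLE scaling and the replicate block ended no member's call, library totals as the only scaling ended 12, DESeq2 ended 8, and leaving out the low-count filter and fitting only the groups compared ended 1 each. Replicate numbers did not pair the libraries (15 pairs of groups, r -0.0298 to 0.0446). With the replicate block the members called were 23 with IFNγ and 20 in vehicle for loss of Cop1, 21 in Cop1-loss and 24 in Rosa26 cells for IFNγ, 4 for the difference of responses, and 7 with IFNγ and 6 in vehicle between guides. Over all genes that run called 4862, 4292, 4115, 3926, 693, 1162 and 729 in the same order.

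With the libraries of each population summed, the genes called were 1397 with IFNγ and 865 in vehicle for loss of Cop1, 1364 in Cop1-loss and 1102 in Rosa26 cells for IFNγ, and 0 for the difference of responses. Members called were 7, 4, 4, 3 and 0 in that order. That fit has few residual degrees of freedom, the guides differ, and it does not pair IFNγ with vehicle within a guide population. DESeq2 called 426 genes for the difference of responses, and 701 with IFNγ and 463 in vehicle between guides. A fit of only the sgRNA2 and sgRNA1 vehicle libraries called 464. Summing was not possible between guides, and the difference of responses uses all groups.

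Leaving out 1 library gave 3612 to 4950 genes with IFNγ and 2919 to 4284 in vehicle for loss of Cop1, 3505 to 4054 in Cop1-loss and 2960 to 4056 in Rosa26 cells for IFNγ, 348 to 733 for the difference of responses, and 422 to 1264 with IFNγ and 349 to 686 in vehicle between guides. Members called were 18 to 23, 16 to 23, 20 to 22, 15 to 26, 1 to 5, 3 to 7 and 3 to 7 in that order, and the 15 in Rosa26 cells came without Rosa26 IFNγ replicate 1. The calls held without each library were 17 of 22, 14 of 20, 19 of 21, 11 of 24, 1 of 4, 3 of 7 and 2 of 6.

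With library totals as the only scaling, the split for loss of Cop1 with IFNγ is given above. The IFNγ response in Cop1-loss cells gave 1715 of 4296 genes higher, against 2152 of 4073 with TMM. The difference of responses gave 305 of 651 higher, against 402 of 683.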
